A study of Rattus norvegicus with 8 samples.

Results

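The dual-specificity phosphatase genes Dusp1, Dusp2, Dusp4, Dusp5, Dusp6, Dusp12, Dusp14 and Dusp19 were read from rat medial thalamus after repeated tracheal occlusion. Members were the array rows outside controls whose gene name, without the suffix _predicted, is one of these 8 names. The rule found 7 of the 8 genes, each with 1 probe, and no probe carried the name Dusp14. All 7 were among the 26966 genes tested. The 8 names were selected on log2 ratios of occlusion to control already measured in these samples, so the group differences of the members are given as descriptions without a test.

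The samples came from male Sprague-Dawley rats of 277 g under urethane anaesthesia, each carrying a tracheal cuff that could be inflated to stop airflow. In 4 occlusion rats the cuff blocked 2 to 4 breaths at a time, with at least 15 breaths of recovery between blocks, for 10 min, and the brain was then taken at once. In 4 control rats the cuff stayed deflated and the brain was taken 70 min after setup. For the occlusion rats the labels do not state how long setup to removal took, so occlusion and time under anaesthesia cannot be told apart. RNA of each rat was labelled with Cy5 and hybridised to 1 rat oligonucleotide array beside a Cy3-labelled pool of all 8 rats, so each value below is a log2 ratio of the rat to that pool. In whole tissue, fewer cells of a type and less RNA per cell cannot be told apart.

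Dual-specificity phosphatases remove phosphate from tyrosine and from serine or threonine. Those called MAP kinase phosphatases switch off the kinases ERK, p38 and JNK by removing the phosphates of the activation loop. Several are themselves transcribed in response to MAP kinase signalling and so form a negative feedback loop. In brain, Dusp1, Dusp4, Dusp5 and Dusp6 are known to follow neuronal activity and growth factor signalling. Dusp1, Dusp2, Dusp4 and Dusp5 act in the nucleus and Dusp6 in the cytoplasm. Dusp12, Dusp14 and Dusp19 are atypical members, which lack the kinase-binding domain of the others.

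The promoters of 4 genes are shown because these genes spread most between animals and differ in the elements that couple transcription to signalling. Each stretch is the 250 bases before the RefSeq start site in assembly GRCr8, 5′ to 3′ on the plus strand, which is the strand of all 4 genes. Capitals mark matches, on either strand and overlaps included, to the cAMP response element TGACGTCA, its core TGACG, the E-box CACGTG, the TATA box TATAAA, and the serum response element known as the CArG box.
Dusp1, chr10:17184603-17184852: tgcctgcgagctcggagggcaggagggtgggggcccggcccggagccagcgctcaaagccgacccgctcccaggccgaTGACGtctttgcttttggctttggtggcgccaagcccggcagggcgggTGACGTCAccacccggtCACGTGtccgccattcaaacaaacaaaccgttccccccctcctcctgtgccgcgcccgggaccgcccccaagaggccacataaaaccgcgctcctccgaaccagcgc
Dusp5, chr1:262543524-262543773: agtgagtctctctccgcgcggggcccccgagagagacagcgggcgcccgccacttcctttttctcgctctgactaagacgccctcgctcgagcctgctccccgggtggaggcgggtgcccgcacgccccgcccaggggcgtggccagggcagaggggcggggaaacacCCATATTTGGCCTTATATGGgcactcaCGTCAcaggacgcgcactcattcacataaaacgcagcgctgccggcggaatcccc
Dusp6, chr7:35979354-35979603: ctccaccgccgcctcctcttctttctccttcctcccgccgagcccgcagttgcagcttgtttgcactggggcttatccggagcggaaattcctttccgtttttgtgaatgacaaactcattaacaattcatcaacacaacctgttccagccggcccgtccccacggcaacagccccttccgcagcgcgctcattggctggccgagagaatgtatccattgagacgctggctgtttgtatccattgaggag
Dusp19, chr3:85945053-85945302: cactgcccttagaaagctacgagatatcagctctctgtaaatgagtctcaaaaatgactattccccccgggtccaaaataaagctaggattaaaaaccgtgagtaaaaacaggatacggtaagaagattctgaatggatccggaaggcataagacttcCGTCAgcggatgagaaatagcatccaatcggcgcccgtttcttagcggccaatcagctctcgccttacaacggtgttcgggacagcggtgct

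The Dusp1 stretch holds the full cAMP response element at 124 to 117 bases before the start, and 2 of its 3 TGACG matches lie inside that element. It also holds an E-box. Among 33465 RefSeq promoter windows of the same length, 1.59% hold TGACGTCA, 18.2% hold TGACG and 5.59% hold CACGTG. The Dusp5 stretch holds 2 CArG boxes side by side, at 82 to 73 and 72 to 63 bases before the start, together with 1 TGACG match. A CArG box occurs in 501 of the windows. The Dusp19 stretch holds 1 TGACG match, and the Dusp6 stretch holds none of the motifs searched. TATAAA was found in none of these 4 stretches and in 12.9% of all windows. A match is a description of the letters only. Promoters were matched for 7 of the 8 genes, Dusp4 being the exception.

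Signal quality differed between the probes. Those of Dusp1, Dusp5, Dusp6, Dusp12 and Dusp19 were well above background in both dyes on all 8 arrays. The Dusp2 probe read only 2.01 to 2.62 times its local Cy5 background, and the Dusp4 probe 1.94 to 2.51 times. Both passed in Cy5 on all 8 arrays, but in Cy3 on 5 arrays for Dusp2 and on 4 arrays for Dusp4, so small ratios of these genes are poorly measured. No member spot was saturated or marked as an outlier. Over all spots, between 68.3% and 80.2% were well above background in Cy5 per array, and the number of arrays limits the precision. The lowest share was that of control 1, and the next lowest was 74.8% in occlusion 3. The array of control 1 also held the most outlier spots, 853 against 136 to 423 on the others. The 8 arrays lay on 2 slides. Slide 1 held occlusion 1 and 2 with control 3 and 4, and slide 2 held occlusion 3 and 4 with control 1 and 2.

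The array of control 3 stood apart from the rest. Its mean log2 ratio over the 12 of 14 markers of thalamic relay neurons that could be tested was -1.77, against -0.34 to 0.16 in the other 7 animals. Prkcd, a kinase gene that marks thalamic relay cells, was at -3.01 in control 3. Over 12 of 13 cortex markers its mean was 1.38, against -0.77 to -0.59 in the others. The cortical calmodulin-binding gene Nrgn was at 1.66 there and between -1.21 and -0.96 in the others. Its mean over all 9 meningeal and fibroblast markers was 0.86, against at most 0.06 elsewhere. The mean over 11 of 12 choroid plexus and ependyma markers was highest in occlusion 3, at 1.103, against -1.26 to -0.23 in the other 7. The log2 difference was above 0 for all 11 of these markers, with a median of 0.81, and likewise without control 3, with a median of 0.46. These differences include occlusion 3, and they were not taken without that animal. The marker means of occlusion 1, 2 and 4 were -0.23, -0.30 and -0.66, against -0.46, -0.68, -1.26 and -0.72 in controls 1 to 4. The mean over 5 inhibitory neuron markers was 0.83, -1.02, -1.75 and 0.54 in occlusion animals 1 to 4, against -1.43, -0.76, 1.27 and -0.63 in controls 1 to 4, so it varied widely within both groups. Each tested marker was well above background on at least 4 of the 8 arrays, and their part in the results below was not tested. The difference of each member is given with and without control 3 below, and that of other genes where this animal turns it or moves it by over 1.5 times.

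Of the 26966 genes, 0 passed an adjusted p under 0.05 between occlusion and control (limma, Benjamini-Hochberg; 0.00%), and 835 (3.10%) had an unadjusted p under 0.05. Among the 7 phosphatase genes 0 passed the adjusted threshold. The groups overlapped for all 7 genes. Over all genes measured on 8 arrays, the groups did not overlap for 2.39%. The log2 difference of the members, occlusion minus control, ran from -0.49 for Dusp19 to 0.28 for Dusp6, with 3 of 7 above 0 and a median of -0.05. Over the 8 animals, 95.8% of the genes tested had a smaller SD than Dusp5, 91.3% than Dusp6, 91.3% than Dusp19 and 90.0% than Dusp1. The median difference over all genes tested was 0.00, and their median absolute difference was 0.08 with a median standard error of 0.11.

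**Figure D1:**
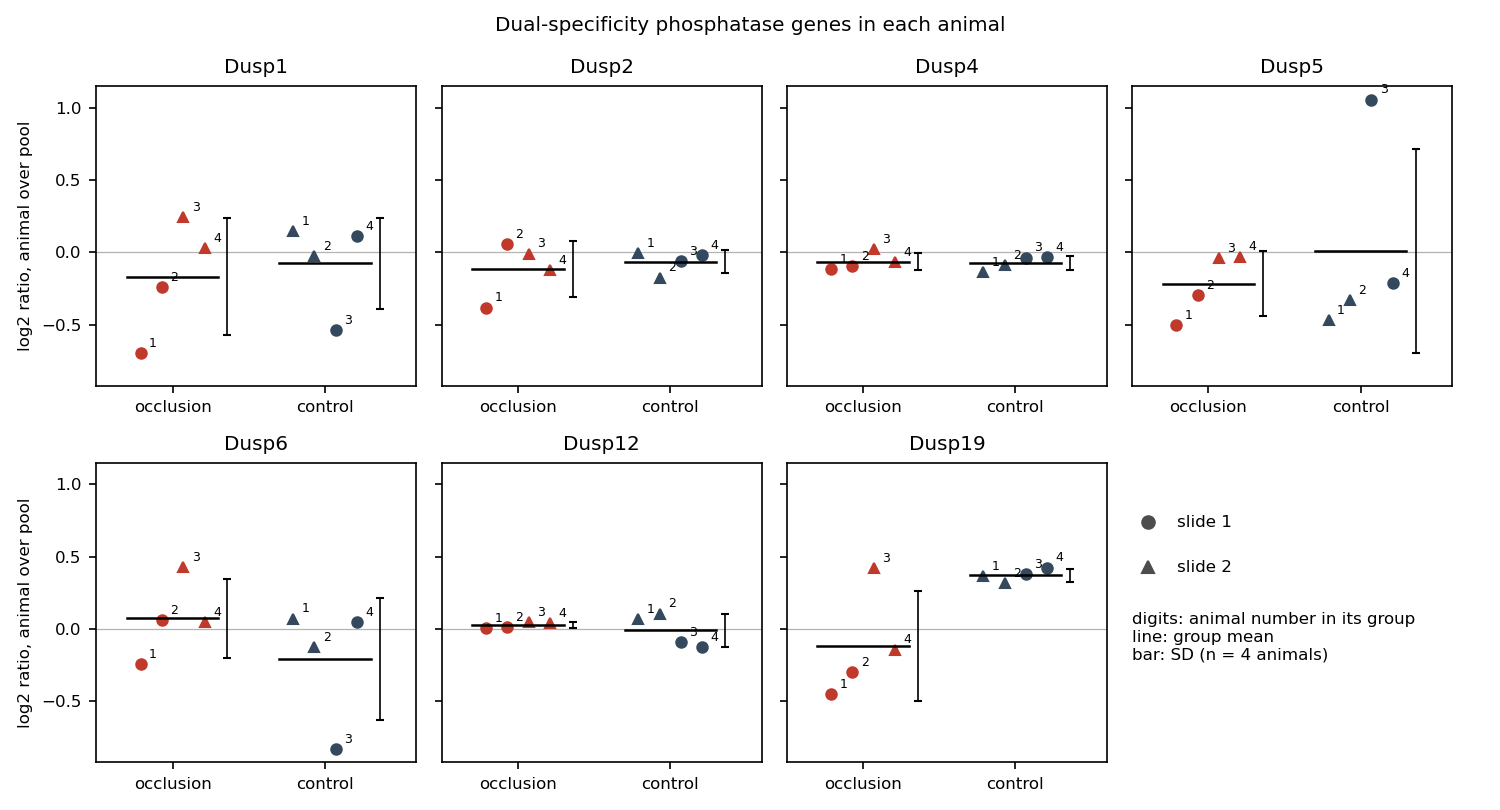
Log2 ratio of each animal to the pool for the 7 measured genes, with occlusion at left and control at right; circles are slide 1, triangles slide 2, lines group means and bars the SD of 4 animals. Control 3 lies highest for Dusp5, at 1.06, and lowest for Dusp6, at -0.83, and 3 of the 4 occlusion animals lie below every control for Dusp19.

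The nuclear phosphatases transcribed with activity come first. Dusp1, an immediate early gene whose product acts on p38, JNK and ERK, had log2 ratios of -0.70, -0.24, 0.24 and 0.03 in occlusion animals 1 to 4, against 0.14, -0.03, -0.54 and 0.11 in controls 1 to 4. Occlusion 1 and control 3 were the low animals, and the groups overlapped over most of their range. The means were -0.17 ± 0.41 under occlusion and -0.08 ± 0.32 in controls (SD, n = 4 each), a difference of -0.09 with a standard error of 0.22. Without control 3 the control mean was 0.08 ± 0.09 (SD, n = 3) and the difference -0.24. Without occlusion 1, the other low animal, the difference turned to 0.09. It was -0.26 on slide 1 and 0.08 on slide 2. The Dusp1 probe lies at chr10:16945391-16945710 of assembly rn3, as the array files give it.

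Dusp5 encodes a nuclear phosphatase specific for ERK. Its log2 ratios were -0.50, -0.30, -0.04 and -0.03 in occlusion animals 1 to 4, against -0.47, -0.33, 1.06 and -0.21 in controls 1 to 4. Control 3 alone was above the pool, and the other 7 animals lay between -0.50 and -0.03. In Cy5 signal its probe, at chr1:259978481-259978540 (rn3), read 2609 units in control 3 and 705 to 951 units in the other 7. The means were -0.22 ± 0.23 under occlusion and 0.01 ± 0.70 in controls (SD, n = 4 each), a difference of -0.23 with a standard error of 0.31. Without control 3 the control mean was -0.34 ± 0.13 (SD, n = 3) and the difference turned to 0.12. The slides also gave opposite signs, -0.82 on slide 1, which holds control 3, and 0.37 on slide 2. The sign of the Dusp5 difference thus turned with 1 animal.

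Dusp2 and Dusp4 were dim and moved little in the main values, whose offset of 50 units shrinks the ratios of dim probes. Dusp2, first known from activated lymphocytes, acts on ERK and p38 in the nucleus. Its log2 ratios were -0.38, 0.06, -0.01 and -0.12 under occlusion, against 0.00, -0.18, -0.06 and -0.02 in controls. Occlusion 1 was the low animal and the other 7 lay within 0.23 of each other. The difference was -0.05 with a standard error of 0.10, also -0.05 without control 3, and turned to 0.04 without occlusion 1. The low value of occlusion 1 depended on the background correction. With local backgrounds left as deposited it was -0.19, beside -0.17 in control 2, and the Dusp2 difference was -0.0008 with a standard error of 0.08. Dusp4, a nuclear phosphatase for ERK and JNK, had ratios of -0.11, -0.09, 0.02 and -0.07 under occlusion, against -0.14, -0.09, -0.04 and -0.03 in controls. Its difference was 0.01 with a standard error of 0.07, or 0.02 without control 3. It turned to -0.01 without control 1 and to -0.02 without occlusion 3. In the main values Dusp4 spread less over the 8 animals than all but 0.857% of the genes tested. Its SD was 0.05 there and 0.17 in the scanner software's ratios, and that of Dusp2 was 0.14 and 0.41. The rank of Dusp4 was taken only with the offset, so it does not show a stable gene. In the scanner software's own ratios, made without the offset of 50 units, the differences were -0.22 for Dusp2 and 0.11 for Dusp4, with standard errors of 0.27 and 0.13. These probes lie at chr3:114745348-114745407 and chr16:61111848-61119638 (rn3).

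Dusp6 encodes the cytoplasmic phosphatase specific for ERK, a standard readout of ERK activity. Its log2 ratios were -0.24, 0.06, 0.42 and 0.05 in occlusion animals 1 to 4, against 0.07, -0.13, -0.83 and 0.04 in controls 1 to 4. Control 3 was the lowest animal and occlusion 3 the highest, and the remaining values of the groups overlapped. The means were 0.07 ± 0.27 under occlusion and -0.21 ± 0.42 in controls (SD, n = 4 each), a difference of 0.28 with a standard error of 0.21. Without control 3 the control mean was -0.00 ± 0.11 (SD, n = 3) and the difference 0.08, and it was 0.16 without occlusion 3. The slides gave 0.30 and 0.26. Its probe lies at chr7:36917125-36917184 (rn3).

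**Figure D2:**
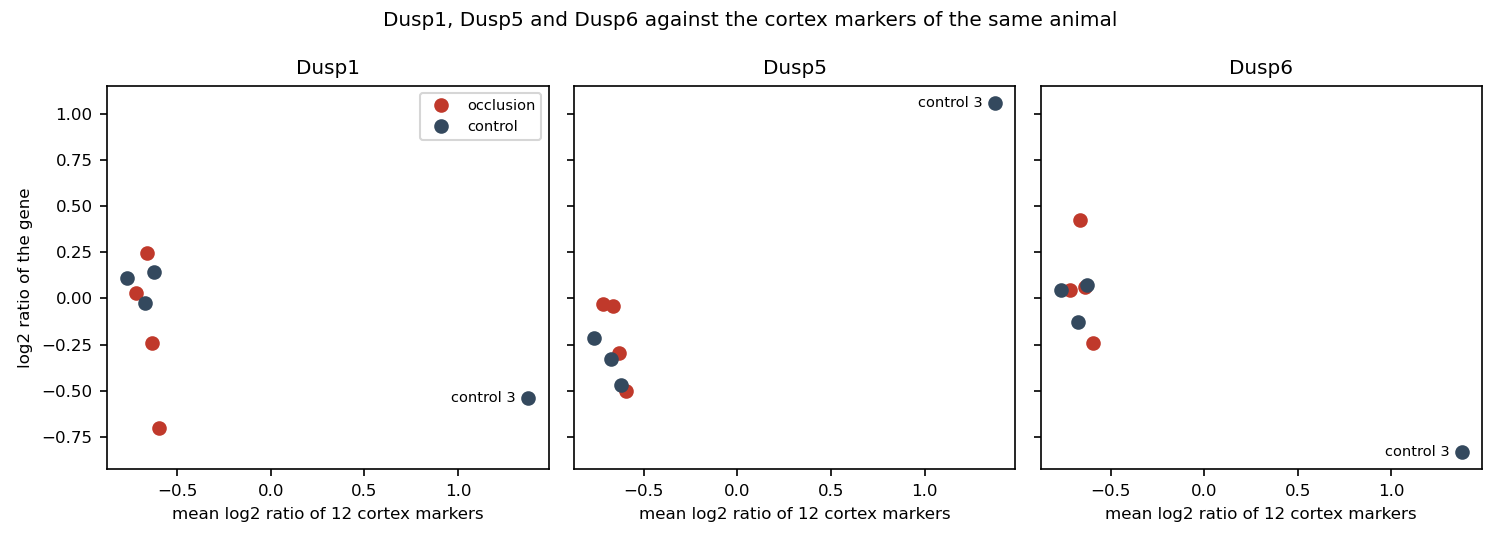
Log2 ratio of Dusp1, Dusp5 and Dusp6 (vertical) against the mean log2 ratio of 12 cortex markers of the same animal (horizontal), with occlusion animals in red and controls in dark blue. Control 3 sits alone at a marker mean of 1.38, with Dusp5 at 1.06 and Dusp6 at -0.83, while the other 7 animals share marker means between -0.77 and -0.59.

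The activity genes Egr1, Fos and Arc, which share ERK signalling as an inducer with the phosphatases, are set beside them in the same animals. In control 3 the transcription factor genes Egr1 and Fos were at 0.83 and -1.74, and the synaptic gene Arc at 1.56, beside 1.06 for Dusp5, -0.54 for Dusp1 and -0.83 for Dusp6. In occlusion 1 Egr1 was at -0.60, the lowest of the 8 animals, as were Dusp1 at -0.70 and Dusp5 at -0.50. With local backgrounds left as deposited, Dusp5 was at -0.47 in control 1 and at -0.42 in occlusion 1. Fos, at -0.39 there, was lower still in occlusion 4 and control 3, and Arc, at -0.23, was higher than in 5 of the other 7 animals. Fos, Dusp1 and Dusp6 were thus low in control 3, and Egr1, Arc and Dusp5 high. The red cell genes Hbb and Alas2 were at -1.27 and -1.17 in occlusion 1, the lowest of the 8 animals for both.

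The atypical members differed from each other. Dusp12, known in rat to bind glucokinase, had log2 ratios of 0.00, 0.01, 0.05 and 0.04 under occlusion, against 0.07, 0.10, -0.09 and -0.13 in controls. The occlusion animals lay inside the range of the controls, and the difference was 0.04 with a standard error of 0.08. It was 0.01 without control 3, 0.12 on slide 1 and -0.04 on slide 2. In the main values only 7.72% of the genes tested spread less than Dusp12 over the 8 animals. Its SD was 0.08 there and 0.13 in the scanner software's ratios, in which the difference was -0.02 with a standard error of 0.12. The rank of Dusp12 was taken only with the offset, so it does not show a stable gene. The Dusp12 probe lies at chr13:86756458-86756783 (rn3).

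Dusp19 encodes an atypical phosphatase that is known from mouse and human cells to act on the JNK cascade through the kinase MKK7. Its log2 ratios were -0.45, -0.30, 0.42 and -0.14 in occlusion animals 1 to 4, against 0.36, 0.32, 0.38 and 0.42 in controls 1 to 4. The controls lay close together, and 3 of the 4 occlusion animals were below all of them. Over all genes measured on 8 arrays, 4.96% had this pattern of 3 animals below and 1 not. Occlusion 3 lay within the range of the controls. The means were -0.12 ± 0.38 under occlusion and 0.37 ± 0.04 in controls (SD, n = 4 each), a difference of -0.49 with a standard error of 0.17. It was -0.49 without control 3 as well, and that animal lay within the other controls for this gene. It was -0.78 on slide 1 and -0.20 on slide 2, which holds occlusion 3. Without occlusion 1, 2, 3 or 4 in turn it was -0.38, -0.43, -0.67 and -0.48. The probe lies at chr3:63376805-63376864 (rn3).

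The value of occlusion 3 for Dusp19 depended on the background correction. That array held spots whose local Cy5 background exceeded their signal by up to 44701 units. With the backgrounds left as deposited, its Dusp19 ratio was 0.12, the groups did not overlap, and the difference was -0.54 with a standard error of 0.10. In that setting 1.30% of genes had every occlusion animal below every control. With the array's median background put in place of those that the scanner software marked as non-uniform, the ratio was 0.42. In the scanner software's own ratios it was 0.53, against 0.41 to 0.59 in controls, and the difference was -0.67 with a standard error of 0.23. The Dusp19 spot itself was not marked.

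The Cy5 channel on its own gave a similar order. The raw Cy5 signal of the Dusp19 probe was 331, 370, 422 and 335 units in occlusion animals 1 to 4, against 479, 519, 699 and 645 units in controls 1 to 4, and these unnormalised signals did not overlap. Over all genes measured on 8 arrays, 1.83% had every raw Cy5 signal under occlusion below every control. After quantile normalisation of Cy5 across arrays the log2 intensities were 8.20, 8.38, 8.99 and 8.57 under occlusion, against 8.95, 8.99, 9.28 and 9.15 in controls. Occlusion 3 again reached the lowest controls, and the difference was -0.56 with a standard error of 0.17. The pool in Cy3 read 233 units on the array of occlusion 3, the lowest of 8 readings between 233 and 293 units.

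**Figure D3:**
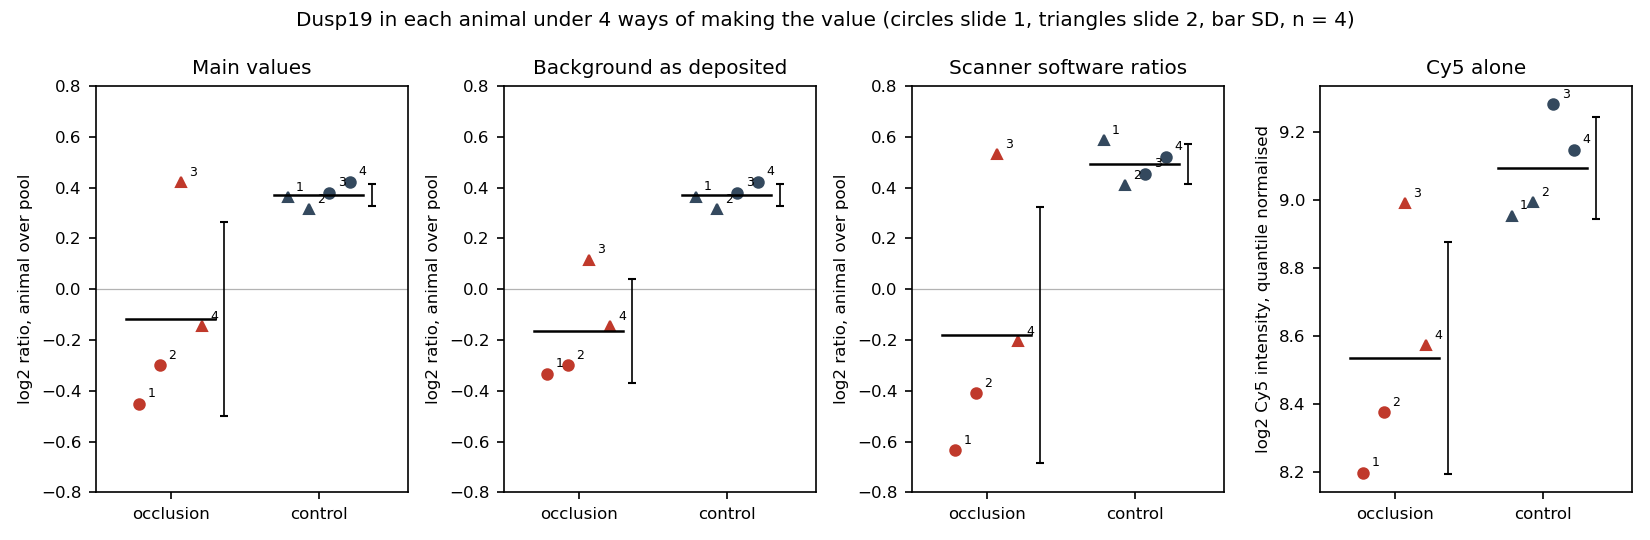
Dusp19 in each animal as the main log2 ratio, the ratio with backgrounds as deposited, the scanner software's ratio, and quantile-normalised log2 Cy5 intensity, with occlusion at left and control at right; lines are group means and bars the SD of 4 animals. Occlusion 3 lies at 0.42, 0.12 and 0.53 in the 3 kinds of ratio, and it leaves the range of the controls only in the second.

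**Figure D4:**
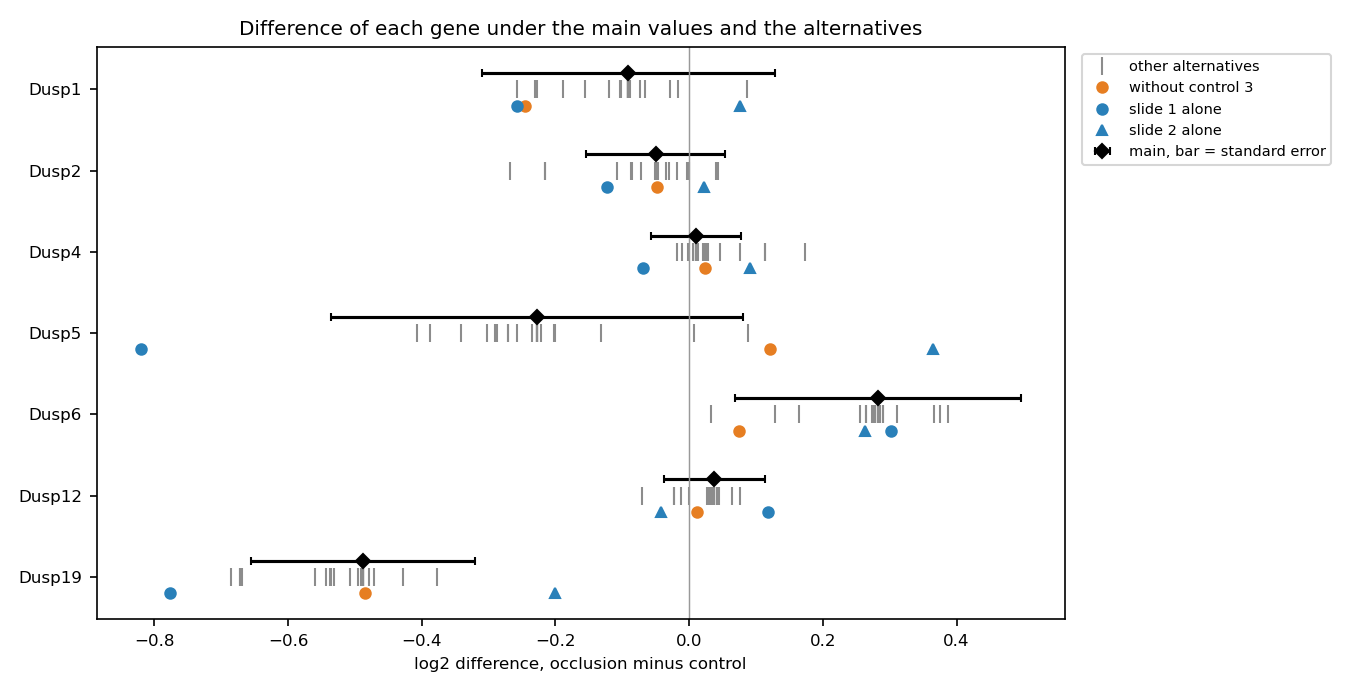
Log2 difference, occlusion minus control, for each gene under the main values (diamonds, bars are the standard error), without control 3, on each slide, and under the other alternatives (grey ticks). Dusp6 stays above 0 and Dusp19 below 0 in all 25 alternatives, while Dusp5 runs from -0.82 on slide 1 to 0.37 on slide 2. The alternatives on filters, probes and blocks return the main difference and could not change its sign.

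How the members varied together across animals was not itself used by the rule. The names were selected on group differences, which remain in correlations over all 8 animals. The p values below are therefore not free of that selection. On deviations from the group means, which leave those differences out, 0 pairs passed. Over the 21 pairs of the 7 genes, 15 Pearson correlations were above 0 and 6 below, and 0 passed an adjusted p under 0.05 by the two-sided exact permutation test over 8 animals (1 pair had an unadjusted p under 0.05). That pair, Dusp1 and Dusp6, had the highest correlation, r = 0.76 (exact permutation p = 0.0169, adjusted 0.356), with Spearman's rho = 0.81 (exact permutation p = 0.0218, adjusted 0.302). It was 0.57 without the 2 animals farthest from the Dusp1 median, occlusion 1 and control 3, and 0.75 without control 3 alone. It was 0.66 on deviations from the slide means and 0.91 on deviations from the group means. The lowest was that of the ERK-specific pair Dusp5 and Dusp6, r = -0.67 (exact permutation p = 0.134, adjusted 0.607), with rho = -0.05 (exact permutation p = 0.935, adjusted 0.977). Without occlusion 1 and control 3 it turned to 0.53, and without control 3 alone to 0.68, so the negative value rests on control 3. Dusp1 and Dusp5 turned likewise, at -0.29 over 8 animals and 0.58 without control 3, and no other pair changed sign. On deviations from the slide means r was -0.65 for Dusp5 and Dusp6, and on deviations from the group means -0.64. Each slide holds 4 animals, too few for a correlation of its own, and all ratios of an array share its pool.

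The genes most like each member were taken by the highest Pearson r over the 8 animals among 13075 genes with a symbol and values on all arrays. They were chosen for this likeness, so r is a description. For Dusp1 they were the water channel gene Aqp2 (r = 0.98), the fibroblast growth factor homologue Fgf12 (0.98) and the dopamine receptor gene Drd1 (0.98). Without control 3 their r was 0.997, 0.979 and 0.986. For Dusp5 they were Tnfsf13, Me3 and Gkn2, each at 0.98, which became 0.92, 0.83 and 0.83 without control 3. For Dusp6 they were Abhd12b, the protein phosphatase subunit gene Ppp2r5d and Glmp, each at 0.98 and between 0.94 and 0.96 without control 3. For Dusp19 they were Smn1, which acts in the assembly of splicing particles, Lipt2 and Aurkaip1, at 0.94, 0.94 and 0.93. The nearest were Hoxc11, Rnf26 and Prodh2 for Dusp2 (0.95 to 0.97), Tnni2, Adgrl1 and Gmeb2 for Dusp4 (0.91 to 0.93), and Exo1, Card10 and Sec13 for Dusp12 (0.94 to 0.97).

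The pathway around the phosphatases was described with 5 lists, from which the members were left out. In each list 0 genes passed higher and 0 passed lower at an adjusted p under 0.05 (limma). Of the other dual-specificity phosphatases 17 of 23 could be tested, with 8 higher and 9 lower under occlusion, a median log2 difference of -0.02 and 1 unadjusted p under 0.05, that of Styxl1. Without control 3 there were 9 higher and 8 lower, and the median turned to 0.06. Dusp9, a cytoplasmic phosphatase for ERK, had the most negative difference, -0.45 with a standard error of 0.45. Control 3 was at 1.63 for Dusp9, against -0.69 to -0.08 under occlusion and -0.53 to -0.46 in the other controls, and without it the difference was 0.08. Dusp18 differed by -0.18, and by -0.02 without control 3. The inactive phosphatase relative Styxl1 differed by 0.24, and by 0.15 without control 3. The JNK phosphatase gene Dusp16 differed by 0.30. Control 1 was at -1.24 for Dusp16, and the other 7 animals lay between -0.27 and 0.04, with a difference of 0.02 without control 1.

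The ERK cascade list holds the targets of Dusp5 and Dusp6 and their activators among other kinases of the cascade. In it 21 of 23 genes could be tested, with 6 higher, 15 lower and a median of -0.10, against 0.00 over all genes. Only Mapk3, which encodes the kinase ERK1, had an unadjusted p under 0.05, and it was added after its value was seen. Its log2 ratios were -0.28 ± 0.03 under occlusion and -0.12 ± 0.07 in controls (SD, n = 4 each). The Ras activators Rasgrp1 and Rasgrf2 differed by -0.29 and -0.28, with standard errors of 0.16 and 0.19, and by -0.17 and -0.08 without control 3. Rasgrp1 differed by -0.14 without occlusion 1. Sos2, also a Ras activator, differed by 0.26 over 7 animals, control 3 having no value, and the kinase gene Mapk7 by 0.09, or 0.01 without control 3. Without control 3 the list had 4 genes higher and 17 lower, with a median of -0.04.

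In the p38 and JNK cascade, on which Dusp1 and Dusp19 act, 23 of 25 genes could be tested, with 12 higher, 11 lower, a median of 0.00 and 0 at an unadjusted p under 0.05. The kinase genes Map3k1 and Mapkapk3 differed by 0.51 and 0.43. Control 1 was at -1.57 and -1.63 for them, the lowest animal in each, and without it they differed by 0.13 and 0.08. The JNK scaffold gene Mapk8ip3 differed by -0.44 and the kinase gene Map3k2 by -0.15. Mapk8ip3 was highest in control 3, at 0.98, and differed by -0.22 without that animal.

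Genes that ERK induces, among them its feedback inhibitors, were tested for 22 of 24, with 7 higher, 15 lower, a median of -0.04 and 0 at an unadjusted p under 0.05. The mean log2 ratio of this list was 0.40 in control 3, against -0.20 to -0.01 under occlusion and -0.10 to -0.06 in the other controls. The transcription factor genes Egr4 and Egr1 differed by -0.85 and -0.49, with standard errors of 0.54 and 0.22, and by -0.25 and -0.31 without control 3. Spry2, an inhibitor of receptor tyrosine kinase signalling, differed by 0.18 and Fos by 0.12. Without control 3 that of Spry2 was 0.34 and that of Fos turned to -0.34. Without control 3 the list had 11 genes higher and 11 lower, with a median of 0.00.

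The last list held phosphatase genes of other families, with the subunit gene Ppp2r1a among them. Whether each acts on MAP kinases was not tested. All 12 genes could be tested, with 8 higher, 4 lower, a median of 0.01 and 0 at an unadjusted p under 0.05. Without control 3 the counts turned to 4 higher and 8 lower, with a median of -0.02. Ptpn5, the tyrosine phosphatase of striatal neurons known as STEP, differed by -0.18 and Ppm1d by -0.12. Ppm1d was at 0.59 in control 3, and its difference turned to 0.03 without that animal. Ppm1j differed by 0.23 and Ppm1k by 0.11, or 0.17 for Ppm1k without control 3. Ppm1j was at -2.77 in control 3, and its difference was -0.51 without that animal. The shares of genes at an unadjusted p under 0.05 in these lists are read against the 3.10% over all genes.

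**Figure D5:**
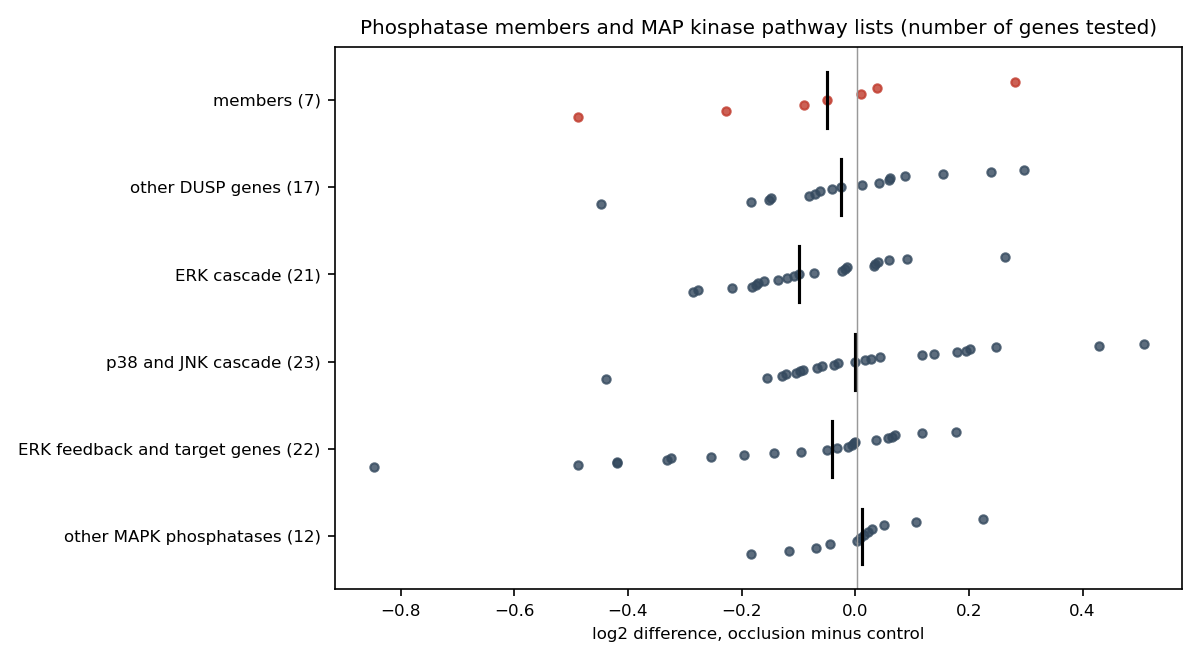
Log2 difference, occlusion minus control, of the 7 phosphatase genes (red) and of the tested genes of 5 MAP kinase lists (dark blue), each point a gene, with the list median as a black bar and the median of all genes as a grey line. The medians lie between -0.10 for the ERK cascade and 0.01 for the list labelled other MAPK phosphatases.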

How the data were processed

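RNA of 8 medial thalamus samples, 4 occlusion and 4 control, was measured on 2-colour arrays in 1 dye orientation. Agilent Feature Extraction 9.5.1.1 made the values, per the file headers. The authors' deposited files hold, for each spot, a linear intensity and local background in both dyes, and the software's log10 ratio of Cy5 to Cy3. In the deposited value table these log10 ratios recur in rounded form, and the labels name the dyes, which sets the direction.

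Intensities were corrected by normexp (offset 50) and loess within arrays. After the data had been seen, spots whose local background the scanner software marked as non-uniform (2 to 361 per array) were given the array's median background, because normexp otherwise estimated a Cy5 background mean of -567.9 on the array of occlusion 3, against 1.81 after this step. Spots of a probe were averaged, probes well above Cy5 background on at least 4 of 8 arrays kept, and a gene represented by its brightest probe. Of 41012 probes, 21183 were named through RefSeq, and the others kept the name of the design. Groups were compared with limma 3.58.1 (R 4.3.3; lmFit, eBayes, Benjamini-Hochberg), tested on simulated data. Each sample is a separate rat. Replicate numbers were checked as pairs by correlating deviations from the group means, which gave -0.15 to 0.09. Animals of the same number lay on opposite slides, so this check cannot exclude a pairing by number.

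The members and lists were chosen with earlier results of these data known. Named genes are all members, the 2 highest and 2 lowest differences of each pathway list, the 3 genes most like each member, and Egr1, Fos and Arc. The 2 brightest markers of each marker list were also eligible, and Mapk3 was added after its value was seen. Alternatives covered background, normalisation, filters, probes, weights, blocks, slides and single animals. Figures were drawn with matplotlib 3.10.9.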

Additional observations from a re-analysis of the deposited data

Results flagged for a closer look

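In groups of 4 animals, 38 checks of the 7 genes and 12 marker lists found 8 values far from the other 3 of their group, where chance gives about 1 in 20. Of these, 6 belong to control 3. Its Dusp5 log2 ratio of 1.056 lay far above the next control, at -0.213. Its mean log2 ratio was also far from the other controls for the markers of thalamic relay neurons (-1.768), cortex (1.377), hippocampus (0.574), habenula (-1.243), and meninges and fibroblasts (0.86). The hippocampus markers were not all high in control 3. Dkk3, Wfs1 and Zbtb20 were at 1.95, 1.57 and 0.29 there, and Prox1, Spink8 and Fibcd1 at -0.23, -0.08 and -0.05. Among occlusion animals, occlusion 1 was low for thalamic relay markers (-0.336) and occlusion 3 for hippocampus markers (-0.44).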

How the results depend on the processing

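The count of genes past an adjusted p under 0.05 was 0 in the main values and under all 25 alternatives, for all genes, for the members and for the 5 pathway lists. Unadjusted p under 0.05 was reached by 609 genes without occlusion 1 to 1335 without control 1 among the fits that left out 1 animal, and by 1255 with array weights. Of pairs of members, 0 passed under each of the 13 alternatives run. With replicate number as a block, 0 genes passed and 790 had an unadjusted p under 0.05, against 835 without it. The differences of Dusp6 and Dusp19 kept their sign in all 25 alternatives, from 0.03 to 0.39 and from -0.78 to -0.20. That of Dusp1 changed sign in 2, of Dusp2 in 3, of Dusp4 and Dusp5 in 4 each, and of Dusp12 in 6. Not all alternatives could change a sign. Each member has 1 probe and the blocks are balanced between the groups, so those on filters, probes and blocks returned the main differences. The deposited value table repeats the scanner software's ratios in rounded form, so it is not a separate check. The alternative with scanner ratios without control 3 was chosen after seeing the data. So was the replacement of marked backgrounds in the main values. The values with backgrounds as deposited became an alternative only through that choice. Dim probes limit Dusp2 and Dusp4.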

Other observations

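No probe carried the name Dusp14, but a probe named LOC365977 by the array design matched the RefSeq gene Dusp14l1 through its gene ID. Its log2 ratios were -0.59, -0.07, 0.09 and -0.19 in occlusion animals 1 to 4, against -0.06, -0.12, -0.32 and -0.05 in controls 1 to 4. Occlusion 1 and control 3 were the lowest animals of their groups, as they were for Dusp1. The means were -0.19 ± 0.29 under occlusion and -0.14 ± 0.13 in controls (SD, n = 4 each), a difference of -0.05 with a standard error of 0.14. Without control 3 the control mean was -0.08 ± 0.03 (SD, n = 3), which lies farther from the occlusion mean. The probe was well above background in both dyes on all 8 arrays.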
